A study of Homo sapiens with 28 samples.

Results

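Collagen genes, other stromal genes and macrophage genes were followed in HCT116 xenograft tumors and in cultures grown from such tumors. The set holds 10 genes, chosen by symbol, of 58278 genes counted: 7 stromal genes (COL1A1, COL1A2, COL3A1, COL6A3, SPARC, ACTA2 and TAGLN) and 3 genes used as macrophage markers (CD68, CSF1R and CD74). HCT116 cells, an established line from a human colorectal carcinoma, were used with a luciferase-GFP reporter and were injected under the skin of male NOD SCID mice 5 weeks of age. Mice received vehicle (Control, 3 tumors), the CDK4/6 inhibitor Palbociclib at 100 mg/kg/day (5 tumors), the glutaminase inhibitor Telaglenastat at 150 mg/kg/day (4 tumors, spelled Telaglenestat in the labels) or both drugs at these doses (the combination, 4 tumors), all for 23 days. The 12 ex vivo cultures, 3 for each treatment, were monolayer lines made by collagenase and trypsin digestion of tumors and grown without either drug, and the labels do not tie a culture to a sequenced tumor. NOD SCID mice lack mature T and B lymphocytes and keep their own fibroblasts, vessels and macrophages, so a tumor can hold host cells beside the human carcinoma cells. The counts are listed on human genes, and the share of reads from host RNA in the values below was not tested. Reads counted on genes ranged from 6273834 to 10617936 per tumor library and from 7198540 to 13815675 per culture library. The labels number the replicates without naming an animal, so p-values measure the spread between these libraries, which may in part be technical.

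Type I collagen is a triple helix of chains from COL1A1 and COL1A2, type III collagen is built from COL3A1 alone, and both form the fibrils of connective tissue. COL6A3 codes for a chain of type VI collagen, which forms beaded filaments near cells. SPARC is a secreted protein that binds collagen and is abundant in fibroblasts. ACTA2 (smooth muscle alpha-actin) and TAGLN (transgelin) are part of the contractile machinery of smooth muscle cells and myofibroblasts. CD68 is a lysosomal glycoprotein rich in macrophages, CSF1R is the receptor through which CSF1 and IL34 maintain macrophages, and CD74 is the invariant chain that guides MHC class II molecules in antigen-presenting cells. Several of these genes, SPARC and CD74 among them, are also transcribed by some carcinoma cells.

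The collagen transcripts share a repeated codon pattern, shown here because these genes are compared with each other below and differ in GC content. Glycine, coded by GGN, recurs at a fixed spacing of 3 codons along the helix, and many helix exons are 54 bases long. In the GENCODE 29 annotation of GRCh38, COL1A1 held 21 coding exons of 54 bases, COL1A2 24, COL3A1 24 and COL6A3 3. The longest unbroken run of GGN at that spacing was 338 repeats in COL1A1, 339 in COL1A2, 343 in COL3A1 and 45 in COL6A3. The exons printed are the 54-base exons of full repeats nearest the middle of each coding sequence, 5′ to 3′ on the coding strand, with the GGN codon that opens each repeat of 3 codons in capitals (other GGN codons stay in lower case): exon 34 of 51 of COL1A1 (chr17:50190543-50190596, minus strand), exon 34 of 52 of COL1A2 (chr7:94419498-94419551, plus strand), exon 32 of 51 of COL3A1 (chr2:188999842-188999895, plus strand) and exon 16 of 44 of COL6A3 (chr2:237361121-237361174, minus strand).
COL1A1: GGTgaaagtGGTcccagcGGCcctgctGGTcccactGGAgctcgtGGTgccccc
COL1A2: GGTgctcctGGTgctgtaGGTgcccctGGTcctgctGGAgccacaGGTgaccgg
COL3A1: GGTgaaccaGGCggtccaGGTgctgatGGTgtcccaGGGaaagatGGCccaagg
COL6A3: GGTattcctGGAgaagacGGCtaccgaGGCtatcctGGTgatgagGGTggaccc
The share of G and C in these exons fell from 70.4% in COL1A1 and 68.5% in COL1A2 to 63.0% in COL3A1 and 59.3% in COL6A3. Over the transcript used for each gene, GC content was 61.1% for COL1A1, 54.8% for COL1A2, 52.1% for COL3A1 and 53.2% for COL6A3, against a median of 48.4% over the genes tested in tumors.

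ACTA2 belongs to the actin family, whose coding sequences are close to each other, and the reads were 60 bases long, so the transcripts of the members were searched for windows of that length shared with other genes. The search was for exact matches in human transcripts, so inexact matches and mouse transcripts were not examined. Of the 1290 windows of 60 bases in the ACTA2 transcript, 0 were found in the transcripts of another human gene. The same was true of 8 other members, and the exception was CD68, where 1673 of 1819 windows (91.97%) also occurred in transcripts of the readthrough gene AC016876.2 on the same strand, so that counts of CD68 are uncertain where the counting could not assign such reads. ACTA2, TAGLN, SPARC and CD68 overlap genes on the opposite strand, and whether strand was used in the counting is not given in the sources used here.

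The members lie on GRCh38 at chr17:50183289-50201632 (COL1A1, ENSG00000108821.13), chr7:94394561-94431232 (COL1A2, ENSG00000164692.17), chr2:188974320-189012746 (COL3A1, ENSG00000168542.14), chr2:237324003-237414375 (COL6A3, ENSG00000163359.15), chr5:151661096-151687165 (SPARC, ENSG00000113140.10), chr10:88935074-88991339 (ACTA2, ENSG00000107796.13), chr11:117199321-117204782 (TAGLN, ENSG00000149591.16), chr17:7579467-7582113 (CD68, ENSG00000129226.13), chr5:150053291-150113372 (CSF1R, ENSG00000182578.13) and chr5:150401637-150412929 (CD74, ENSG00000019582.14). Levels are given as CPM, counts divided by library size, with library sizes scaled by TMM, a method that aligns the bulk of genes between libraries. Divided by transcript length, the highest mean levels in Control tumors were those of SPARC (19.9 ± 1.45 CPM per kb, SD, n = 3) and COL1A1 (16.6 ± 2.20), which lay within their SDs of each other. ACTA2 (6.26 ± 0.716), COL3A1 (6.13 ± 1.44) and CD68 (5.48 ± 1.21) followed and were likewise not separated by their spread. COL1A2 stood at 3.55 ± 0.550 CPM per kb, CD74 at 1.72 ± 0.507, TAGLN at 0.971 ± 0.250, CSF1R at 0.892 ± 0.289 and COL6A3 at 0.533 ± 0.126, and each of the last 4 lay within the SDs of its neighbour.

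**Figure D1:**
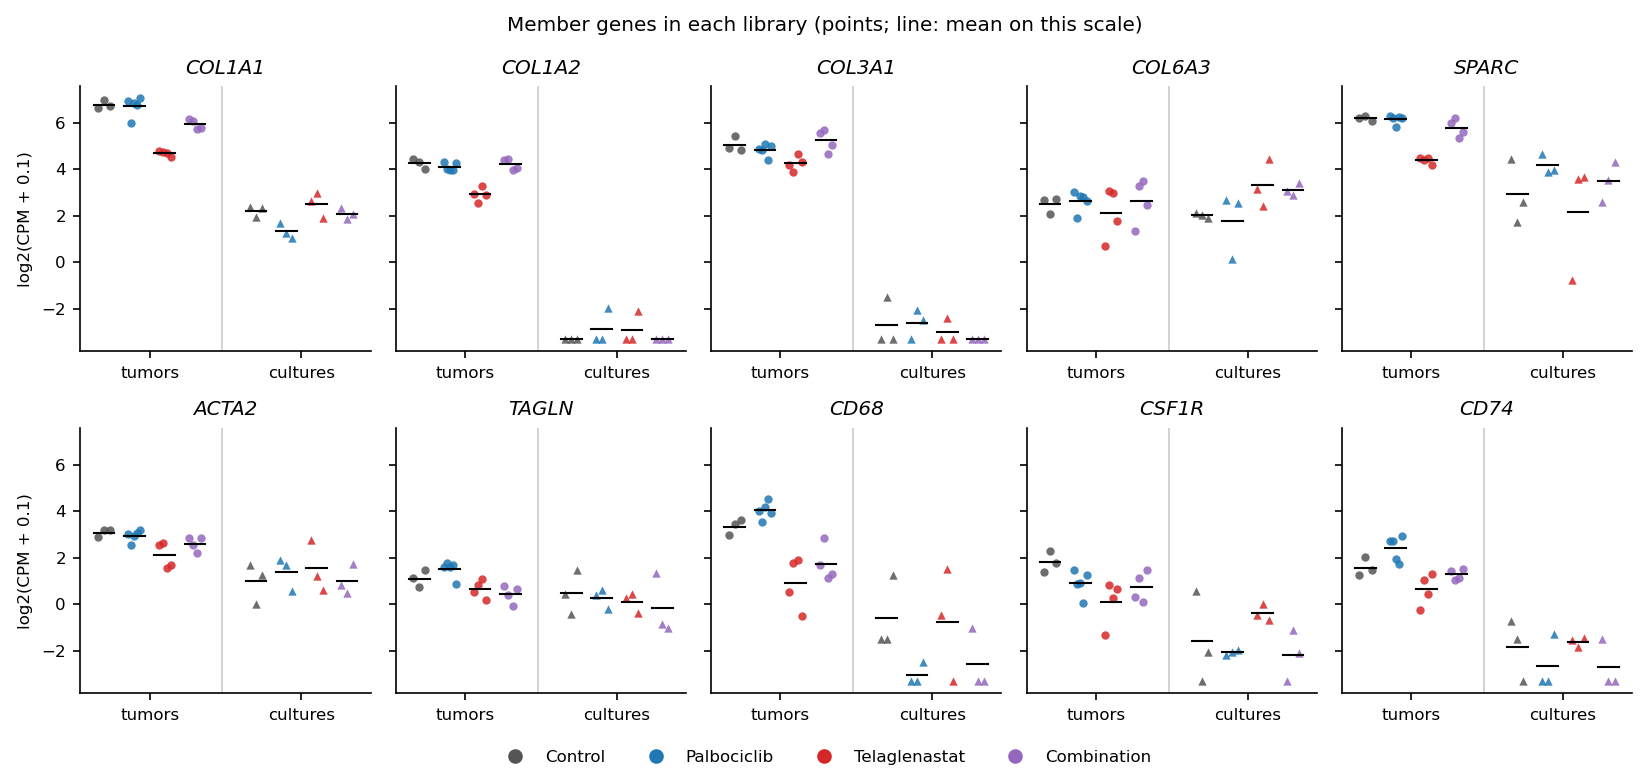
Level of each member, as log2(CPM + 0.1) on the y axis, in 16 tumors (circles) and 12 cultures (triangles) by treatment (color), with lines at group means. COL1A2 and COL3A1 sit at the bottom of the scale in cultures, COL6A3 overlaps between tumors and cultures, and COL1A1 and SPARC are lowest among tumors in the 4 Telaglenastat tumors.

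The comparison of tumors with cultures asked which of these genes were counted in tumors and were absent or lower in cultures. Site, handling and host cells cannot be told apart in it. The fibrillar collagens COL1A2 and COL3A1 were counted in each tumor and were near 0 in each culture. COL1A2 had 131 to 222 counts in Control and Palbociclib tumors, 42 to 62 in Telaglenastat tumors and 112 to 144 in combination tumors, against 0 counts in 10 cultures, 2 in a Palbociclib culture and 1 in a Telaglenastat culture. COL3A1 had 106 to 413 counts over the 16 tumors and 0 to 2 over the 12 cultures. COL1A1, the partner chain of COL1A2, did not differ to that extent: it had 153 to 1394 counts in tumors and 16 to 86 counts in each culture.

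Pooled over the libraries of a treatment, COL1A2 was at least 146-fold higher in Control tumors and at least 164-fold higher in combination tumors than in their cultures, and COL3A1 was at least 344-fold higher in combination tumors, with the culture group set to a floor of 3 counts over the group. COL1A1 was 24.4-fold higher (95% exact interval for counting error 20.1 to 30.0) in Control, 46.2-fold (36.3 to 59.7) in Palbociclib, 4.24-fold (3.57 to 5.06) in Telaglenastat and 14.9-fold (12.3 to 18.3) in combination tumors. SPARC was 7.02-fold (6.14 to 8.06), 3.92-fold (3.57 to 4.31), 2.44-fold (2.09 to 2.85) and 4.59-fold (4.06 to 5.19) higher in the same order. These intervals cover counting error only, and the cultures of a treatment differed by more: SPARC ran from 3.20 to 21.9 CPM in Control cultures and from 0.494 to 12.7 CPM in Telaglenastat cultures.

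In edgeR's quasi-likelihood test, with p-values adjusted by Benjamini-Hochberg over 15466 genes and a threshold of 0.05, 8 of the 10 members were called higher in Control tumors than in Control cultures (23.1% of all genes), 9 in Palbociclib (33.7%) and 8 in the combination (19.2%). In Telaglenastat 5 were called, all higher, where 2943 of the 15466 genes were called higher. There 23.5% of all genes were called lower and 42.6% in either direction. COL1A2, COL3A1, CD68, CSF1R and CD74 had too few counts in cultures to pass the filter there and entered this fit through the tumors, which fixed their direction, so these counts are a description. Of the 5 members with enough counts in the cultures alone, COL1A1 was called in all 4 treatments, SPARC likewise, and ACTA2 in Control, Palbociclib and the combination. SPARC in Telaglenastat (1.32 ± 0.50, adjusted p = 0.034) lost its call with an offset for GC content and transcript length (1.14 ± 0.49, adjusted p = 0.064) and without Telaglenastat culture 1 (0.78, adjusted p = 0.134) or any of Telaglenastat tumors 1, 2 and 3 (adjusted p = 0.0548 to 0.0593). COL6A3 was called in none of them, with log2 fold changes of 0.51 ± 0.57 (SE) in Control, 0.51 ± 0.50 in Palbociclib, -1.17 ± 0.51 in Telaglenastat and -0.27 ± 0.51 in the combination. TAGLN passed in Palbociclib and in no other treatment (1.32 ± 0.50, adjusted p = 0.0238), and not without Palbociclib culture 1 (adjusted p = 0.0504) or Palbociclib culture 3 (adjusted p = 0.116).

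With the offset for GC content and transcript length per library, 8 members were higher in Control (17.7% of all genes), 8 in Palbociclib (24.3%) and 8 in the combination (19.1%). In Telaglenastat 4 were then higher, SPARC no longer among them, and 1, COL6A3, lower (-1.58, adjusted p = 0.0194), where 39.8% of all genes were called in either direction.

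The macrophage genes were sparse in cultures and low in tumors. They entered the fit of tumors against cultures through the tumors, so their calls and p-values in it are a description. CD68 had 74, 105 and 101 counts in Control tumors and 2, 2 and 16 in Control cultures, and 94 to 221 counts in Palbociclib tumors against 0, 0 and 1 in their cultures. In Telaglenastat tumors it had 9, 24, 23 and 4 counts, which overlapped with the 5, 31 and 0 counts of Telaglenastat cultures, and the difference did not pass (log2 fold change 0.83 ± 0.71, adjusted p = 0.368). That call rests on 1 library: without Telaglenastat culture 2, which held the 31 counts, it was 2.75 (adjusted p = 0.0268). CSF1R had 24, 46 and 28 counts in Control tumors and 2 to 30 in the other tumors, against 0 to 11 in cultures, and was called in Control (2.74 ± 0.75, adjusted p = 0.00383), Palbociclib (3.60 ± 0.83) and the combination (3.14 ± 0.83), with 0.71 ± 0.71 in Telaglenastat. CD74 had 22, 38 and 22 counts in Control tumors and 0 to 4 in each culture, and was higher in tumors in each treatment, by log2 fold changes from 2.74 ± 0.71 (Telaglenastat) to 5.21 ± 0.71 (Palbociclib).

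**Figure D2:**
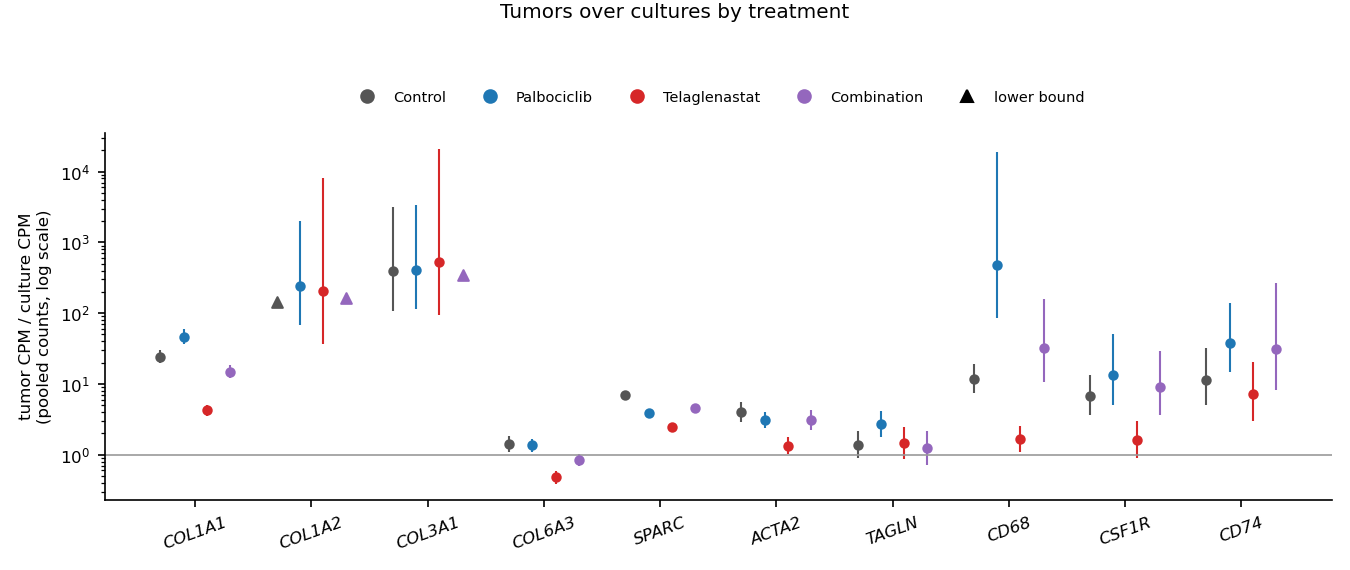
Ratio of tumor to culture CPM for each member and treatment, from pooled counts, on a log y axis, with 95% exact intervals for counting error and triangles at lower bounds where the cultures held 0 counts. COL1A2 and COL3A1 lie at 146 or above in all treatments, and COL6A3 and TAGLN between 0.479 and 2.68.

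In bulk RNA, fewer cells of a type and less RNA per cell cannot be told apart, here and in each comparison that follows.

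The fibrillar collagen genes COL1A1, COL1A2 and COL3A1, SPARC, ACTA2 and the 3 macrophage genes were lower in Telaglenastat than in Control tumors, as fitted without an offset for GC content. COL1A1 stood at 100.3, 128.5 and 106.4 CPM in Control tumors and at 27.9, 26.8, 25.7 and 22.98 CPM in Telaglenastat tumors. SPARC stood at 73.4, 79.2 and 68.5 CPM in Control and at 22.6, 21.4, 22.2 and 18.02 CPM in Telaglenastat tumors. The groups did not overlap for either gene, and the Telaglenastat tumors lay close together. COL1A1 fell by 2.22 ± 0.18 on the log2 scale (adjusted p = 1.71e-08) and SPARC fell by 1.92 ± 0.16 (adjusted p = 1.73e-08).

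The partner chain COL1A2 had 21.7, 20.02 and 15.9 CPM in Control and 7.69, 5.86, 9.71 and 7.36 CPM in Telaglenastat tumors, and fell by 1.44 ± 0.17 (adjusted p = 8.63e-07). COL3A1 had 30.7, 43.1 and 28.2 CPM in Control and 18.1, 14.8, 25.5 and 19.97 CPM in Telaglenastat tumors, and fell by 0.91 ± 0.22 (adjusted p = 0.0017). Neither gene overlapped between these groups, although the highest Telaglenastat tumor came within 3 CPM of the lowest Control tumor for COL3A1. COL6A3 ranged from 4.17 to 6.62 CPM in Control and from 1.51 to 8.37 CPM in Telaglenastat tumors, and its log2 fold change of -0.23 ± 0.46 did not pass (adjusted p = 0.701). ACTA2 had 7.33, 8.97 and 9.03 CPM in Control and 5.73, 6.14, 2.82 and 3.15 CPM in Telaglenastat tumors, and fell by 1.02 ± 0.26 (adjusted p = 0.00321). TAGLN, the other contractile gene, had 1.56 to 2.65 CPM in Control and 1.05 to 2.04 CPM in Telaglenastat tumors, with -0.56 ± 0.39 (adjusted p = 0.243).

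Among the macrophage genes, CD68 had 7.75, 10.9 and 12.2 CPM in Control and 1.36, 3.35, 3.60 and 0.601 CPM in Telaglenastat tumors, and fell by 2.30 ± 0.41 (adjusted p = 0.000124). CSF1R had 24, 46 and 28 counts in Control and 2, 12, 7 and 10 counts in Telaglenastat tumors, and fell by 1.73 ± 0.50 (adjusted p = 0.00671). CD74 had 22, 38 and 22 counts against 5, 14, 8 and 16 counts and fell by 0.998 ± 0.39 (adjusted p = 0.0394). CD68 and CSF1R did not overlap between the groups, whereas CD74 did in CPM and lost its call without Control tumor 2 (adjusted p = 0.187) or Control tumor 3 (0.0553), or Telaglenastat tumor 1 (0.113) or Telaglenastat tumor 3 (0.092).

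In all, 8 of the 10 members were called lower in Telaglenastat tumors, where 28.5% of the 14848 genes tested were called lower and 22.6% higher. The median log2 fold change was -1.23 over the members and 0.0269 over all genes tested. The base composition of the genes that were lower was examined next. In each library, the deviation of genes from their mean over tumors was related to their GC content, and the slope, in log2 units per SD of GC content, was 0.249 to 0.260 in Control and 0.097 to 0.362 in Palbociclib tumors, but -0.379 to -0.299 in Telaglenastat and -0.277 to -0.152 in combination tumors. Of the members, 9 had a GC content above the median of genes tested, and SPARC (47.3%) was the exception. With an offset for GC content and transcript length in each library, 4 of 10 members were called lower in Telaglenastat tumors (7.91% of all genes were called lower in that fit).

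The members that kept their call with the offset were SPARC (log2 fold change -2.04 ± 0.15, adjusted p = 4.18e-08), CD68 (-1.67 ± 0.41, adjusted p = 0.00835), COL1A1 (-1.01 ± 0.14, adjusted p = 5.62e-05) and COL1A2 (-0.91 ± 0.18, adjusted p = 0.00132). COL3A1 stood at -0.68 ± 0.23 (adjusted p = 0.0554), ACTA2 at -0.75 ± 0.26 (0.062) and CSF1R at -0.90 ± 0.50 (0.271) in that fit. CD74, with the second highest GC content among the members (58.7%), went from -0.998 to 0.02 ± 0.41 (adjusted p = 0.982). With the offset the fall in COL1A1 was smaller, CD74 stood near 0, and SPARC moved by less than its SE.

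**Figure D3:**
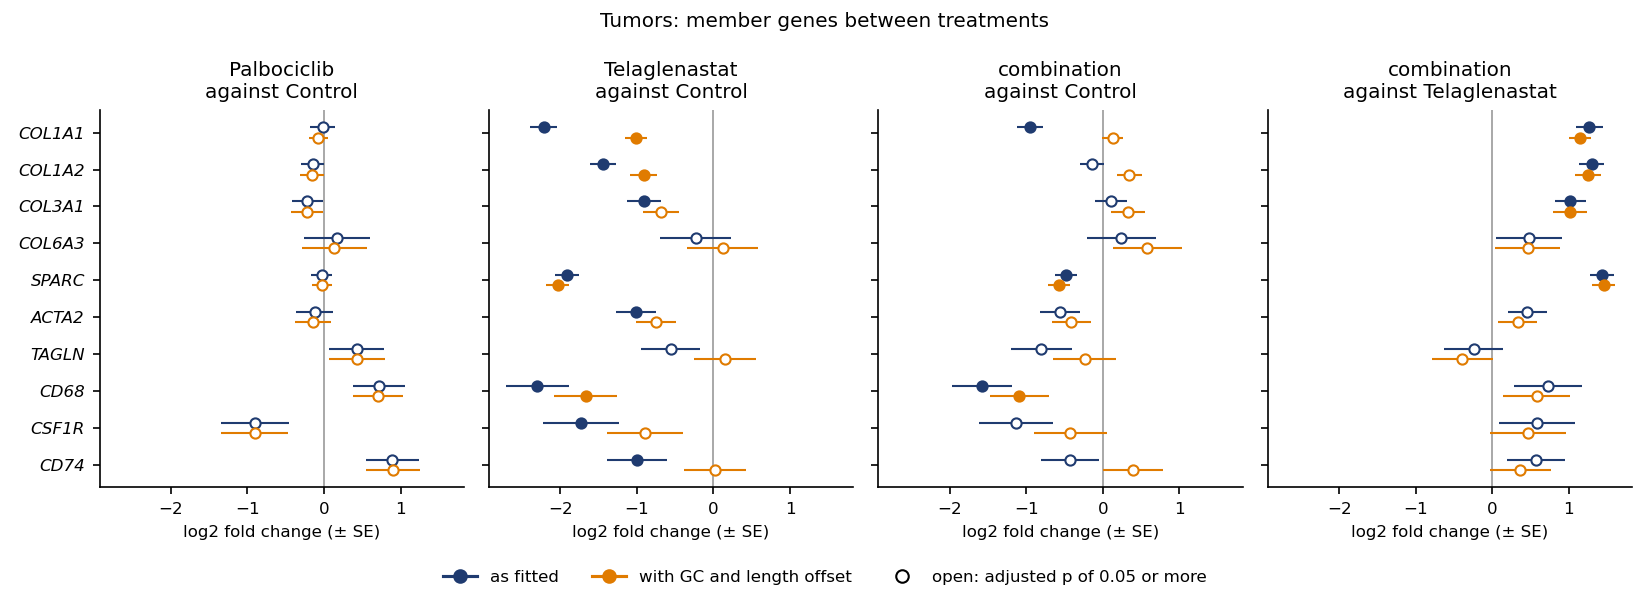
Log2 fold change (± SE, x axis) of each member (y axis) between tumor groups, as fitted (blue) and with an offset for GC content and transcript length (orange), filled where the adjusted p was below 0.05. SPARC hardly moves with the offset. COL1A1 moves toward 0 for Telaglenastat against Control and across 0, from -0.95 to 0.127, for combination against Control. The rise of COL1A1, COL1A2, COL3A1 and SPARC in combination over Telaglenastat tumors is kept.

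In combination tumors COL1A1 lay between Control and Telaglenastat tumors. COL1A1 had 71.9, 68.1, 53.5 and 55.3 CPM, below all Control tumors and above all Telaglenastat tumors. SPARC had 63.4, 74.1, 40.4 and 49.5 CPM, which overlapped with Control. COL1A2 (21.2, 21.6, 15.8 and 16.5 CPM) and COL3A1 (47.8, 51.9, 25.5 and 33.1 CPM) overlapped with Control too, and neither passed (log2 fold changes -0.14 ± 0.16 and 0.11 ± 0.21). Against Control, 3 of 10 members were called lower (26.9% of all genes called lower, 17.6% higher): COL1A1 (-0.95 ± 0.17, adjusted p = 0.000127), SPARC (-0.48 ± 0.15, adjusted p = 0.0107) and CD68 (-1.58 ± 0.39, adjusted p = 0.00263), a share near that of all genes.

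With the offset for GC content and length, 2 of 10 were lower in combination than in Control tumors (13.0% of all genes), SPARC (-0.58 ± 0.14) and CD68 (-1.09 ± 0.38), and COL1A1 stood at 0.13 ± 0.13 (adjusted p = 0.535). CD68 had 19, 48, 15 and 16 counts in combination tumors, all below its 74 to 105 counts in Control tumors. ACTA2 (-0.56 ± 0.26, adjusted p = 0.0861), TAGLN (-0.80 ± 0.40, 0.108), CSF1R (-1.14 ± 0.48, 0.0609), CD74 (-0.43 ± 0.38, 0.386) and COL6A3 (0.24 ± 0.46, 0.7) did not pass. Without combination tumor 4, CSF1R passed (-1.43, adjusted p = 0.0352).

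Against Telaglenastat alone, the 3 fibrillar collagen genes and SPARC were higher in the combination, and COL6A3 did not pass (0.47 ± 0.43, adjusted p = 0.499). COL1A1 (log2 fold change 1.27 ± 0.18, adjusted p = 4.16e-05), COL1A2 (1.30 ± 0.16, adjusted p = 1.35e-05), COL3A1 (1.02 ± 0.21, adjusted p = 0.00157) and SPARC (1.43 ± 0.15, adjusted p = 1.86e-06) were higher, and the groups did not overlap for any of the 4 genes. That is 4 of 10 members, where 8.93% of all genes were called higher and 9.89% lower. With the offset these same 4 were called (8.3% of all genes), with values of 1.14, 1.26, 1.01 and 1.46 in the same order. The 3 macrophage genes did not pass, with log2 fold changes of 0.73 ± 0.44 for CD68, 0.59 ± 0.50 for CSF1R and 0.57 ± 0.39 for CD74. Calls in this comparison were not limited to the members. Of 19 genes that modify or crosslink collagen 9 were higher and 0 lower, and of 8 HCT116 epithelial genes tested 5 and 0. With the offset 8 and 5 were higher. Of 12 contractile genes tested 4 were higher, of 19 other collagen genes 4 (1 lower), of 7 fibroblast genes 2 and of 9 MHC class II genes 0.

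In Palbociclib tumors no member was called different from Control. COL1A1 had 125.0, 63.6, 114.8, 110.7 and 135.0 CPM, a wider range than the 3 Control tumors. SPARC had 79.4, 74.9, 56.1, 75.7 and 74.8 CPM, COL1A2 15.7 to 19.9 CPM and COL3A1 20.9 to 34.3 CPM. By edgeR's quasi-likelihood test 0 of 10 members were called against Control, where 6.16% of all genes were called in either direction. DESeq2 called 0 as well. By edgeR 2 members had an unadjusted p under 0.05, as had 2701 of the 14848 genes tested. The 2 members were CD68 (11.5 to 22.9 CPM against 7.75 to 12.2, log2 fold change 0.72 ± 0.34, adjusted p = 0.266) and CD74 (3.22 to 7.58 CPM against 2.30 to 3.96, 0.89 ± 0.35, adjusted p = 0.153). CSF1R went the other way, with 0.934 to 2.69 CPM against 2.51 to 4.80 (-0.90 ± 0.44, adjusted p = 0.291).

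Adding Telaglenastat to Palbociclib was compared as combination against Palbociclib tumors. Here 5 of 10 members were called lower (27.5% of all genes): COL1A1 (-0.93 ± 0.15, adjusted p = 5.23e-05), TAGLN (-1.23 ± 0.35, adjusted p = 0.00731), SPARC (-0.46 ± 0.13, adjusted p = 0.00711), CD68 (-2.30 ± 0.36, adjusted p = 2.68e-05) and CD74 (-1.32 ± 0.33, adjusted p = 0.00285). CD68 ranged over 11.5 to 22.9 CPM in Palbociclib tumors and over 2.11 to 7.20 CPM in combination tumors, without overlap. With the offset for GC content and length 3 members were called, SPARC (-0.56 ± 0.13) and CD68 (-1.80 ± 0.34) lower and COL1A2 higher (0.50 ± 0.15, adjusted p = 0.0241), where 14.8% of all genes were called in either direction. COL1A1 stood at 0.20 ± 0.12 (adjusted p = 0.299) in that fit. Among the macrophage genes, CD68 was called lower for Telaglenastat against Control, combination against Control and combination against Palbociclib, with and without the offset, and these comparisons share libraries.

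In the cultures, grown without drug, no member was called between treatments. Of the members, COL1A1, COL6A3, ACTA2, TAGLN and SPARC had enough counts to be tested, and COL1A2, COL3A1, CD68, CSF1R and CD74 had not. By edgeR's quasi-likelihood test 0 of 5 were called for Palbociclib (0.0% of 13985 genes), Telaglenastat (0.0%) or the combination (0.00715%, which is 1 gene) against Control. In the same order, 1, 1 and 0 members had an unadjusted p under 0.05, beside 592, 898 and 895 of all genes. DESeq2 also called 0 members in each. COL1A1 had 5.09, 3.71 and 4.99 CPM in Control cultures and 6.05, 7.78 and 3.70 CPM in Telaglenastat cultures (log2 fold change 0.34 ± 0.33, adjusted p = 0.883). SPARC varied between cultures of 1 treatment, with 172, 25 and 42 counts in Control, 208, 104 and 204 in Palbociclib, 4, 131 and 96 in Telaglenastat and 46, 127 and 151 in combination cultures. COL6A3 had 3.70 to 4.32 CPM in Control and 5.34 to 21.8 CPM in Telaglenastat cultures, without overlap, and 1.55 ± 0.55 did not pass (adjusted p = 0.712, unadjusted p = 0.0146).

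Whether a treatment difference in tumors differed from that in cultures was tested as an interaction over all 28 libraries. For Telaglenastat 3 of 10 members were called, all more negative in tumors (18.5% of all genes were): COL1A1 (-2.49 ± 0.34, adjusted p = 4.37e-05), CD68 (-2.66 ± 1.04, adjusted p = 0.0485) and ACTA2 (-1.61 ± 0.63, adjusted p = 0.0481). With the offset for GC content and length 1 of 10 was called (2.57% of all genes), COL1A1 at -1.27 ± 0.27 (adjusted p = 0.00646), and the adjusted p was 0.282 for CD68 and 0.241 for ACTA2. COL1A2, COL3A1, CD68, CSF1R and CD74 had too few counts in cultures to be tested there and entered this fit through the tumors. The call for CD68 is thus a description, and a missing call for any of these genes does not show equal differences. For the combination the SE of COL1A2 was 40.7. For Palbociclib and for the combination 0 of 10 were called (1.39% and 2.91% of all genes in either direction), and DESeq2 called 0 in both. By edgeR 2 and 0 members had an unadjusted p under 0.05, beside 2159 and 3211 of 15466 genes. The calls for CD68 and ACTA2 sat next to the threshold, and each was lost on leaving out any of 8 of the 13 libraries compared. Without Telaglenastat culture 2 the value for CD68 was -0.74 (adjusted p = 0.762), and without Telaglenastat culture 1 the value for ACTA2 was -0.75 (adjusted p = 0.344).

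COL1A1 was compared with the other fibrillar chains within each tumor. The ratio of COL1A1 to COL3A1 counts was 3.34 ± 0.403 (SD, n = 3) in Control tumors, 3.86 ± 1.16 (n = 5) in Palbociclib, 1.38 ± 0.367 (n = 4) in Telaglenastat and 1.65 ± 0.333 (n = 4) in combination tumors. Single tumors ran from 2.98 to 3.78 in Control, from 2.20 to 5.31 in Palbociclib, from 1.01 to 1.81 in Telaglenastat and from 1.31 to 2.09 in the combination, so both groups with Telaglenastat lay below all tumors without it. The ratio of COL1A1 to COL1A2, the chains of 1 collagen, was 5.91 ± 1.12, 6.33 ± 1.38, 3.49 ± 0.824 and 3.32 ± 0.112 in the same order. The ratio of COL1A2 to COL3A1 was 0.579 ± 0.121, 0.608 ± 0.113, 0.393 ± 0.0245 and 0.495 ± 0.0908. In two-sided exact permutation tests against Control over 9 comparisons, the raw p for COL1A1 to COL3A1 was 0.0571 (adjusted 0.103) for Telaglenastat and for the combination, the smallest that 4 against 3 tumors can give, and 0.5 (adjusted 0.643) for Palbociclib. GC content falls from COL1A1 over COL1A2 to COL3A1. For Telaglenastat against Control, the log2 fold changes of COL1A1 and COL3A1 were -2.22 and -0.91 as fitted and -1.01 and -0.68 with the offset. For combination against Control they were -0.95 and 0.11 as fitted and 0.13 and 0.33 with the offset. The ratios themselves were not tested with the offset, and the part of GC content in them was not tested.

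**Figure D4:**
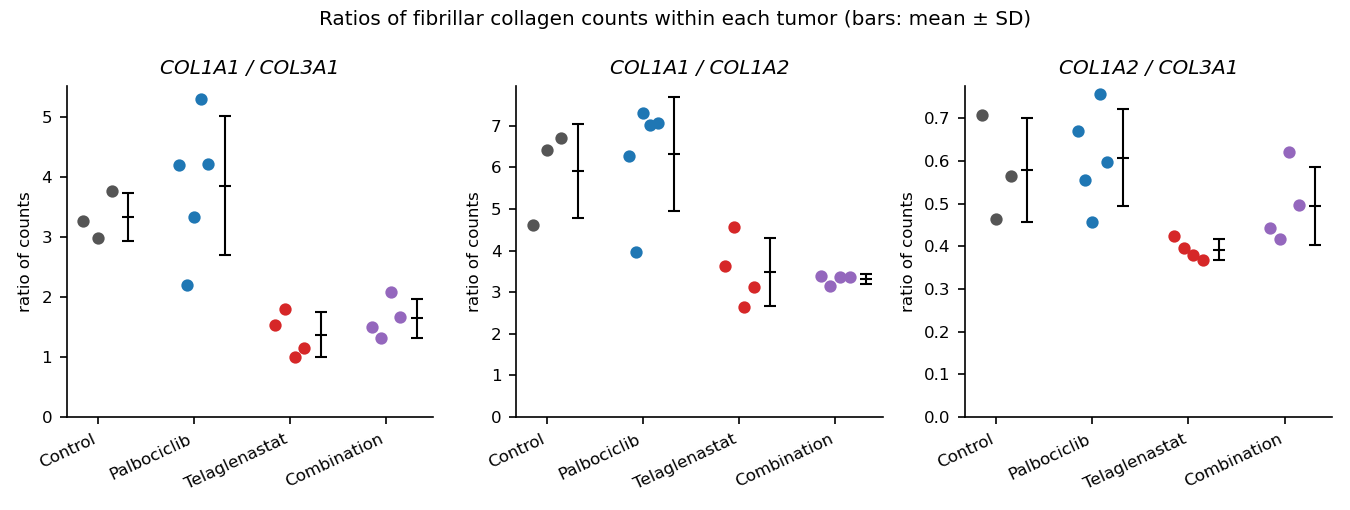
Ratios of counts of the fibrillar collagen genes (y axes, from 0) in each of the 16 tumors by treatment, with mean ± SD beside the points. COL1A1 to COL3A1 lies between 1.01 and 2.09 in the 8 tumors that received Telaglenastat and between 2.20 and 5.31 in the other 8.

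Genes of the cell types these members are used to mark gave the following values in the same libraries. Of 17 other macrophage genes, 12 had fewer than 10 counts in each tumor, and C1QA, C1QB, C1QC and TYROBP, which macrophages transcribe strongly, were at 0 in all 16 tumors. Counts are on human genes, and how far RNA of mouse macrophages would be counted on these genes was not tested. The summed level of the list was 9.39 to 11.9 CPM in Control, 9.30 to 16.9 in Palbociclib, 7.24 to 12.3 in Telaglenastat and 10.8 to 16.4 CPM in combination tumors, against 2.51 to 5.13 CPM over the cultures. The list overlapped between all tumor groups, whereas CD68 did not overlap between Control and Telaglenastat tumors, and the part of macrophage RNA in the values of CD68, CSF1R and CD74 was not tested. Of 3 macrophage genes tested, 0 were called in either comparison with Control, and LYZ, lysozyme, was higher in combination than in Telaglenastat tumors (log2 fold change 1.19, adjusted p = 0.0243). LYZ had 21 to 38 counts in Control tumors and 0 or 1 in Control cultures.

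Genes of the MHC class II pathway, in which CD74 takes part, were counted in all tumor groups and were mostly too low in cultures to be tested there (3 of 10 passed the filter). HLA-DRB1 had 44 to 64 counts in Control tumors, 12 to 19 in Telaglenastat tumors and 0 to 8 in cultures. In Telaglenastat tumors 3 of 9 were called lower (HLA-DQB1, HLA-DRB1 and HLA-DMA) and none higher, and in combination tumors 2 of 9 were lower, shares near the 28.5% and 26.9% of all genes called lower, with 0 of 9 in Telaglenastat after the offset for GC content and length. Summed, the 10 genes of the list reached 30.0 to 34.9 CPM in Control, 38.0 to 44.6 in Palbociclib, at most 29.3 in Telaglenastat and 28.1 to 33.5 CPM in combination tumors.

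Several fibroblast genes, like COL1A2 and COL3A1, were counted in tumors and near 0 in cultures. MMP2, a matrix metalloproteinase, had 69 to 81 counts in Control tumors and 0 in Control cultures, POSTN (periostin) 13 to 30 and 0, and BGN (biglycan) 23 to 37 and 0. Of 16 fibroblast genes, 13 had fewer than 10 counts in each culture. LUM (lumican) was at 0 in all tumors, and DCN (decorin) and THY1 reached at most 3 and 1 counts, although fibroblasts usually transcribe these genes strongly. How far RNA of mouse fibroblasts would be counted on these human genes was not tested. In Telaglenastat tumors BGN (log2 fold change -2.42), MMP2 (-1.20) and FBLN1 (-0.81) were lower than in Control, 3 of 7 tested beside 28.5% of all genes, and with the offset 0 of 7 passed. The summed level was 67.4 to 76.7 CPM in Control, 54.7 to 75.5 in Palbociclib, 36.6 to 66.5 in Telaglenastat and 68.0 to 83.8 CPM in combination tumors, and the part of fibroblast RNA in the collagen results was not tested.

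**Figure D5:**
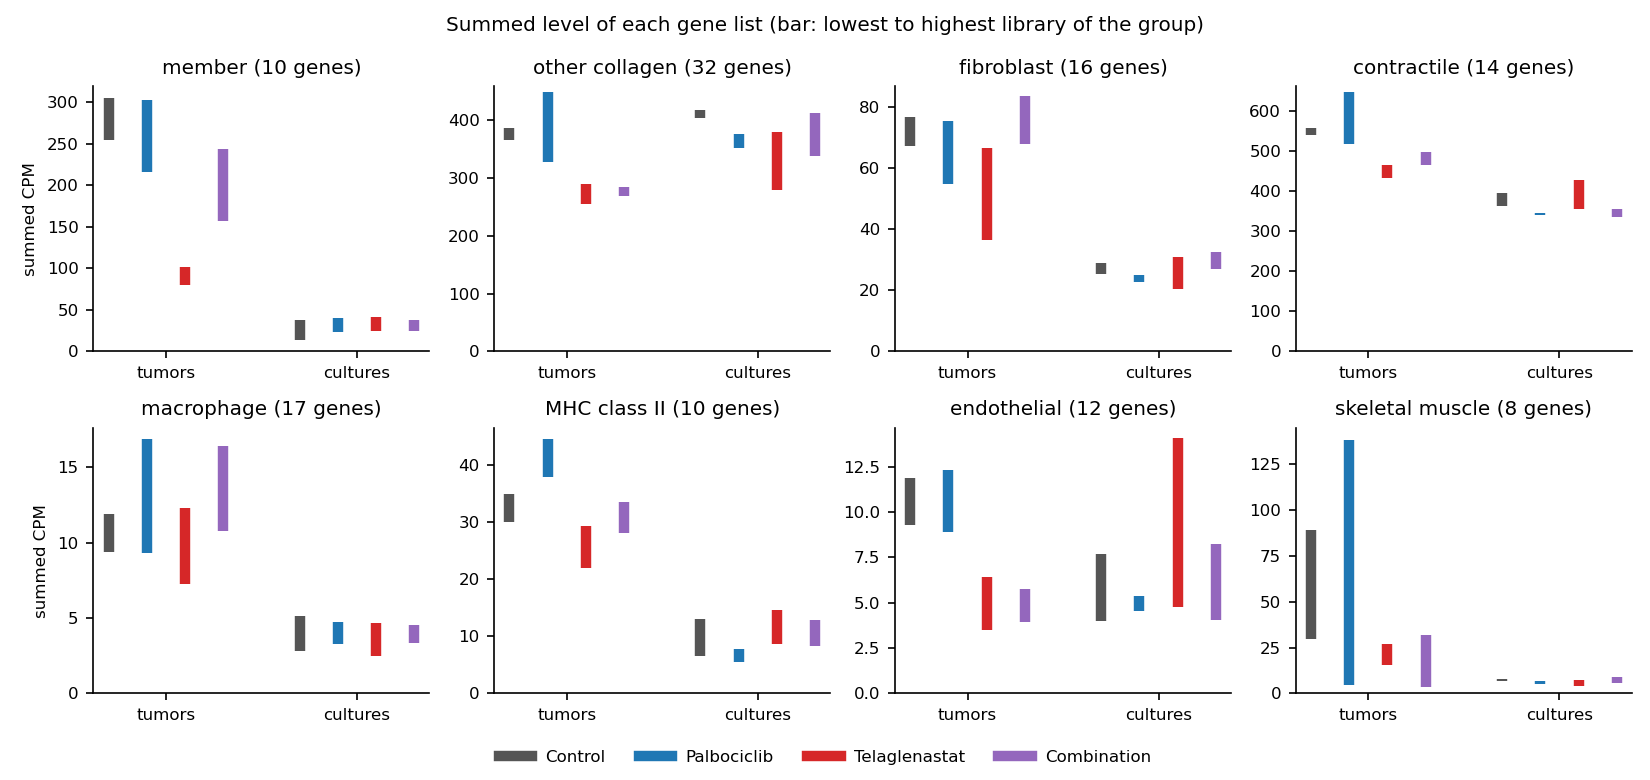
Summed CPM (y axes, from 0) of the members and of 7 gene lists, as a bar from the lowest to the highest library of each group, in tumors (left) and cultures (right). The members are lowest in Telaglenastat tumors, while the macrophage list overlaps across tumor groups and the skeletal muscle list ranges most in Control and Palbociclib tumors.

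Of 32 other collagen genes, 19 were tested in tumors, and 10 were lower and 0 higher in Telaglenastat than in Control tumors (28.5% and 22.6% of all genes), with 2 lower after the offset. In the combination 6 were lower and 0 higher (26.9% and 17.6% of all genes). After the offset 1 was lower (13.0% of all genes) and 2 were higher (median log2 fold change -0.67 without and 0.16 with the offset). COL5A1, which joins type I collagen in fibrils, had 37 to 75 counts in Control, 8 to 10 in Telaglenastat and 14 to 27 in combination tumors and 0 in Control cultures. COL6A2, a partner of COL6A3, fell by 2.11 in Telaglenastat tumors (adjusted p = 2.36e-07), where COL6A3 itself did not pass, and by 0.58 with the offset (adjusted p = 0.0103). COL12A1 was lower in Control tumors than in Control cultures (log2 fold change -1.46, adjusted p = 1.45e-10), with 926 to 1244 counts in Control tumors and 2129 to 2669 in Control cultures. Of 19 genes that modify or crosslink collagen, 12 were lower and 2 higher in Telaglenastat tumors (28.5% and 22.6% of all genes), with 3 and 2 after the offset. P4HA1, a prolyl hydroxylase needed for a stable helix, was higher in Telaglenastat (0.42, adjusted p = 0.00126) and combination tumors (0.66, adjusted p = 1.76e-05) than in Control, while the lysyl hydroxylase PLOD1 fell by 1.95 and 1.53, and by 0.99 and 0.73 with the offset. With the offset P4HA1 passed in the combination (0.40) and not in Telaglenastat (0.07, adjusted p = 0.745). P4HA1 had 2459 to 2788 counts in Control tumors and 413 to 464 in Control cultures.

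Of 14 other genes of contractile cells and pericytes, 12 were tested, and 7 were lower and 2 higher in Telaglenastat tumors, beside 28.5% and 22.6% of all genes, with 1 in each direction after the offset. MYL9, a myosin light chain, had 310 to 387 counts in Control and 46 to 82 in Telaglenastat tumors, and RGS5, a pericyte gene, was higher (1.18, adjusted p = 0.00372, and 0.113 with the offset). ACTG2, the enteric smooth muscle actin, had 5 to 15 counts in Control tumors and 0 in all 12 cultures. Of 8 ligand genes tested (growth factors and cytokines that act on fibroblasts and macrophages), 6 were lower and 2 higher in Telaglenastat tumors, beside the same shares of all genes. CSF1, the ligand of CSF1R, had 36 to 42 counts in Control and 8 to 13 in Telaglenastat tumors (-1.43, adjusted p = 0.0012), TGFB1 fell by 1.63 and TGFB2 rose by 1.35, and with the offset 0 were lower and 1, TGFB2, was higher.

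Other cell types gave few counts, with the exception of skeletal muscle and of PPARG on the adipocyte list. Of 12 endothelial genes, 7 had fewer than 10 counts in each tumor and CDH5 was at 0. Both genes tested, EGFL7 (-2.46) and ESAM (-0.92), were lower in Telaglenastat tumors (28.5% of all genes were), with 0 after the offset. All 6 erythroid, all 6 neutrophil and 8 of 11 lymphocyte genes had fewer than 10 counts in each tumor. CD8A, the 1 lymphocyte gene tested, did not pass against Control. Of the adipocyte list PPARG alone was tested, and it was higher in combination than in Control tumors (0.72, adjusted p = 0.00204). PPARG was also counted in cultures, at 25.7 CPM in Control cultures against 17.4 CPM in Control tumors. The skeletal muscle actin ACTA1 had 208, 99 and 55 counts in Control, 408, 60, 0, 24 and 97 in Palbociclib, 15 to 20 in Telaglenastat and 0 to 24 in combination tumors, and at most 2 in a culture. It was lower in Telaglenastat than in Control tumors (-2.41, adjusted p = 0.0344, and -1.35 with the offset, adjusted p = 0.397), and its part in the results for ACTA2 was not tested. In the same order of tumors, ACTA2 was 7.33, 8.97 and 9.03 CPM in Control and 7.98, 5.76, 7.50, 8.3 and 9.04 CPM in Palbociclib tumors. It ranged from 2.82 to 6.14 CPM in Telaglenastat and from 4.49 to 7.22 CPM in combination tumors.

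Of 8 tested genes of the HCT116 epithelial list, KRT19, CLDN4 and KRT8 fell by 2.09, 1.55 and 1.36 in Telaglenastat tumors and EPCAM rose by 0.19. Over the list 5 were lower and 1 higher (28.5% and 22.6% of all genes), with 4 lower after the offset (7.91% of all genes).

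The genes most like the members over the 16 tumors were sought among tested genes outside the lists. For the mean of COL1A1, COL1A2, COL3A1 and COL6A3 the highest Pearson correlations of log2 CPM were those of PAOX (0.907), PRF1 (0.902), FABP6 (0.894), ELOVL1 (0.889) and RAB6B (0.889). For the mean of CD68, CSF1R and CD74 they were those of TSPAN15 (0.943), TAF10 (0.937), DNAL4 (0.937), CNKSR1 (0.932) and CRACR2A (0.931). These 10 genes had a GC content of 50.5% to 64.1%, all above the median of genes tested, and the points share the depth and base composition of their library. Once group means were removed, the correlations were 0.06 to 0.647 for the collagen-like and 0.667 to 0.767 for the macrophage-like genes. In cultures, where COL1A2 and COL3A1 were near 0, ELOVL1 still had 45.4 to 71.5 CPM and TAF10 19.4 to 38.7 CPM.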

How the data were processed

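Libraries were made from poly(A) RNA (RIN above 8) with a kit that marks the second strand with uracil, and sequenced as 60-base single-end reads on a HiSeq2500. The authors called bases with CASAVA 1.8, aligned reads with STAR and deposited raw counts per gene for 28 libraries, with hg38 named in the submitters' processing notes. The annotation release and whether strand was used are not given in the sources used here. Of 58278 gene IDs, 57937 matched GENCODE 29, the source of positions, lengths and GC content, and 22232 genes had no count in any library. The deposited counts totalled 6273834 to 13815675 per library, which limits the precision for CSF1R, CD74 and TAGLN.

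Tests used edgeR 4.0.16 (quasi-likelihood, TMM, filterByExpr with a minimum count of 10) in R 4.3.3, with Benjamini-Hochberg adjustment over all genes tested and a threshold of 0.05. Tumors were fitted as 4 groups, cultures as 4 groups, and tumors against cultures and the interactions as 8 groups. The 4 treatment comparisons with Control or Palbociclib share those libraries. The offset for GC content and length was a spline with 5 degrees of freedom fitted in each library. Other alternatives were DESeq2 1.42.0, other scaling, no filter, other sets of libraries in the fit, the replicate number as a block and leaving out each library. Scripts were tested on simulated data. Replicates of a group differed by more than counting noise (smallest chi-square per gene 4.07), so none was counted as a duplicate. The 10 members and the 14 other gene lists were chosen with earlier results of these data known. All members were named. From each other list and comparison up to 3 rises and 3 falls were taken, among called genes whose groups did not overlap, plus the 5 genes most like each of the collagen and macrophage members. Markers at or near 0 and markers beside a result were also named. The comparison of ACTA2 with its paralogs in sequence is not reported here. POSTN, the ACTG2 counts and the count ranges printed for other list genes were picked after their values were seen.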

Additional observations from a re-analysis of the deposited data

Results flagged for a closer look

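In Palbociclib tumors, replicate 5 was lowest for TAGLN at 1.75 CPM, with a gap to its neighbour of 0.739 of the group's range (critical value 0.71), and replicate 3 was lowest for SPARC at 56.13 CPM, with a gap of 0.805. Of the members' values in groups of 4 or 5 tumors, 30 were examined in this way, and chance flags about 1 in 20 of them.

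The Telaglenastat difference from Control was more negative in tumors than in cultures for COL1A1 (-2.49 ± 0.34 on the log2 scale, adjusted p = 4.37e-05), CD68 (-2.66 ± 1.04, adjusted p = 0.0485) and ACTA2 (-1.61 ± 0.63, adjusted p = 0.0481) by edgeR's quasi-likelihood test of the interaction. With the offset for GC content and length COL1A1 stood at -1.27 (adjusted p = 0.00646), while CD68 (adjusted p = 0.282) and ACTA2 (0.241) were no longer called. The replicate block left 1 call, and CD68 and ACTA2 each lost theirs on leaving out any of 8 of the 13 libraries compared. The call for CD68 is a description, since its counts in cultures were too few to be tested there.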

How the results depend on the processing

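Beside the counts of members called that follow, other alternatives gave counts within 1.5 times the reported one. With no filter on low counts, 1 member was called for Palbociclib against Control tumors (CD68), 1 for Telaglenastat against Control cultures (COL6A3), and 2, 5 and 2 for the interactions of Palbociclib, Telaglenastat and the combination. With the offset for GC content and length, 4 members were called for Telaglenastat against Control tumors, 3 for combination against Palbociclib and 1 for the Telaglenastat interaction. The offset with the replicate block gave 4, 3 and 1 for these, and 1 for combination against Control. The replicate block alone gave 1 for the Telaglenastat interaction. With the compared groups only, 3 were called for Telaglenastat tumors against cultures, 1 for the Palbociclib and 1 for the Telaglenastat interaction.

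Signs changed with the offset, without and with the block, to values that did not pass: CD74 for Telaglenastat against Control (0.023 and 0.019), COL1A1 for combination against Control (0.127 and 0.166) and COL1A1 for combination against Palbociclib (0.202 and 0.245). The cause of these changes was not tested.

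Leaving out each library gave 7 to 8 members for Telaglenastat against Control, 3 to 4 for combination against Control, 5 to 6 for combination against Palbociclib, 4 to 4 for combination against Telaglenastat and 0 to 0 for Palbociclib against Control. It gave 0 to 0 in cultures and for the Palbociclib and combination interactions and 1 to 4 for the Telaglenastat interaction. For tumors against cultures it gave 8 to 8 in Control, 8 to 9 in Palbociclib, 4 to 7 in Telaglenastat and 7 to 9 in the combination. In Telaglenastat tumors against cultures, SPARC lost its call without culture 1 (0.78, adjusted p = 0.134 by edgeR). The Telaglenastat interaction of CSF1R was -4.71 (adjusted p = 0.00461 by edgeR) without Control culture 1. The Control cultures left in that fit held 0 and 1 counts of CSF1R. Its counts in cultures were too few to be tested there, so this value is a description.

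Replicate numbers showed no clear pairing of the libraries. Deviations of same-numbered libraries correlated from -0.128 to 0.09 in tumors, from -0.423 to 0.14 in cultures and from -0.386 to 0.246 between tumors and cultures. The correlation was over 0.1 in 3 of 18 pairs of cultures and in 1 of 48 pairs of a tumor and a culture. Depth limits CSF1R, CD74 and TAGLN, which had few counts in each tumor.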
